A study of Mus musculus with 4 samples.

Results

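The genes that load peptides onto MHC class I molecules were followed in isolated mouse pancreatic islets by RNA sequencing. They are the transporter subunit genes Tap1 and Tap2, the tapasin gene Tapbp, its relative Tapbpl, the trimming peptidase gene Erap1, the class I transactivator gene Nlrc5 and the nonclassical class I gene H2-M3, 7 of the 24421 rows of the deposited table. They were chosen by name, and all 7 rows were found. The data are 2 libraries of cytoEV islets, treated daily over 48 h with what the labels name cytoEV, and 2 libraries of control islets, which the labels call untreated. All islets came from wild-type C57BL/6 mice, were kept in medium with 11 mM glucose and gave 200 ng of total RNA to each library. In the series title, pro-inflammatory beta cells are the source of small extracellular vesicles, which are particles enclosed by a membrane that cells shed. The labels give no dose of cytoEV, no age or sex of the animals, and no culture time for the control islets. Separate animals or cultures are not stated for the libraries of a group, so a p-value reflects the spread between these samples alone, which may be technical.

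Class I molecules present pieces of a cell's own proteins to cytotoxic T cells. Proteasomes cut the peptides, the TAP1 and TAP2 subunits together pump them into the endoplasmic reticulum, and there tapasin holds empty class I molecules beside the transporter until a fitting peptide is bound, while ERAP1 shortens peptides to the right length. NLRC5 has no DNA-binding domain of its own and is drawn to the SXY promoter module of class I and peptide loading genes by RFX, CREB/ATF and NF-Y factors, and interferon gamma raises it. In human type 1 diabetes, islets with remaining beta cells show high levels of class I molecules.

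In cytoEV islets, transcripts of the transporter subunit Tap1 and of the transactivator Nlrc5 were 5.74-fold and 6.81-fold as abundant as in control islets, by the ratio of mean CPM (each library's reads brought to a sum of 1000000). Transcripts of Tap2, Tapbp and Erap1 were also higher, by between 1.49-fold and 1.77-fold. The transcripts of Tapbpl and H2-M3 had ratios of 1.20 and 1.16 and did not pass the test. The test was limma on log2(CPM + 1), with p-values adjusted over all 12780 genes that reached 1 CPM in at least 2 libraries, and a gene is called at an adjusted p under 0.05. Of the 7 genes, 5 were called higher in cytoEV islets, against 3.16% of all tested genes. No gene of the 7 was called lower (0, against 3.51% of all tested genes, 0 with no adjustment of p, and 0 by edgeR or DESeq2 on the recovered reads). In all 7 genes both cytoEV libraries lay above both control libraries, as in 27.8% of the tested genes. The members' median log2 change was 0.62, and that of all tested genes was 0.0055. On this scale the change of low genes is understated, so the ratio of mean CPM is given beside it.

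**Figure D1:**
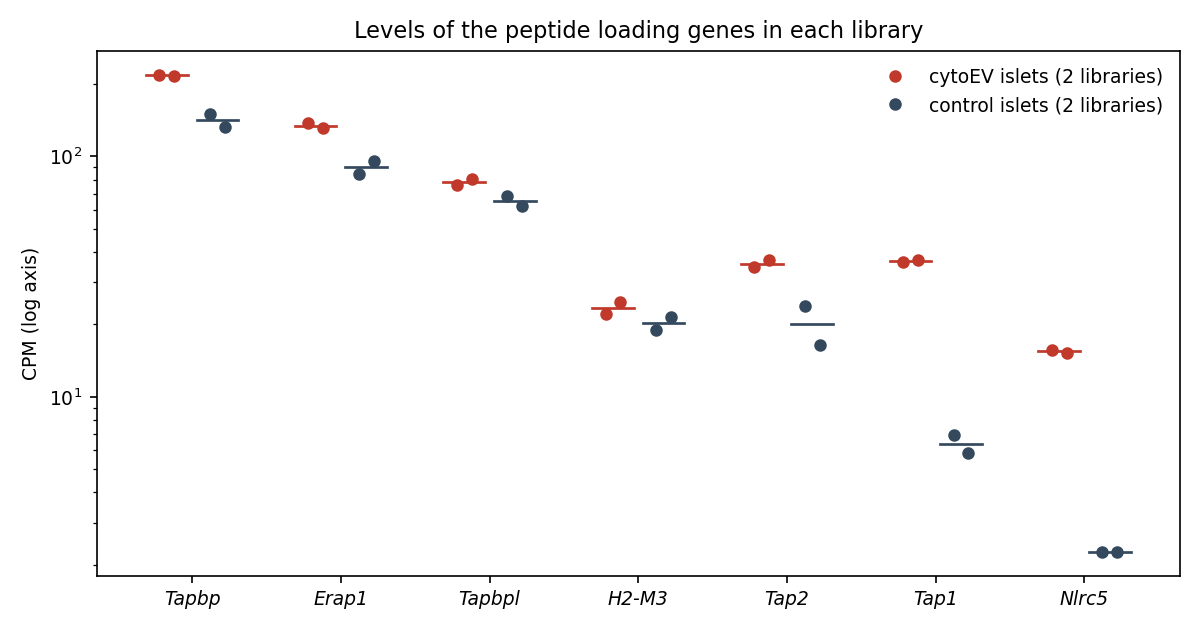
Level of each gene in each library, in CPM on a log axis, with cytoEV libraries in red and control libraries in dark blue to their right. Points are single libraries and bars are means of 2. Tap1 and Nlrc5 show the widest gaps between the groups, and no gene has a control library above a cytoEV library.

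The libraries held between 129726756 and 156183968 reads, which were recovered from the deposited CPM values, so that 3 reads correspond to 0.0192 to 0.0231 CPM (counting error only). Insulin genes took between 17.5% and 20.7% of the reads, and the summed level of 10 beta cell markers was between 235545 and 245846 CPM in cytoEV islets and between 209208 and 237717 CPM in control islets. That sum is nearly all Ins1, Ins2 and Iapp, and of the 10 markers Slc2a2 and Slc30a8 were called higher (limma adjusted p = 7.65e-05 and 0.0218). The delta and gamma cell markers summed to between 3042 and 3272 CPM in cytoEV islets and between 3697 and 4788 CPM in control islets, with Pyy called lower (limma adjusted p = 0.0199). The macrophage markers, 12 in number and all tested, summed to between 318 and 329 CPM in cytoEV islets and between 318 and 326 CPM in control islets, with Cx3cr1 higher and Cd14 lower. The largest part of that sum was Lyz2, with a mean of 142 CPM in cytoEV islets and 166 CPM in control islets. With no adjustment of the limma p, 4 of the 12 were higher and 3 lower, so the sum hides unlike changes. The 8 dendritic cell markers summed to between 15.2 and 16.2 CPM in cytoEV islets and between 12.2 and 12.5 CPM in control islets, nearly all from Itgax, with Xcr1 and Cd209a at 0 in every library. The T and NK cell markers summed to between 1.10 and 1.22 CPM in cytoEV islets and between 1.27 and 1.38 CPM in control islets, and Cd3d, Cd3e, Cd3g, Ncr1, Nkg7 and Gzmb were at 0. The 6 B cell markers summed to between 6.17 and 6.66 CPM in cytoEV islets and between 3.73 and 4.08 CPM in control islets, with Cd79a higher and Ms4a1 and Cd79b at 0. Called lower in cytoEV islets were 3 of 9 tested endothelial, 3 of 5 acinar, 2 of 5 ductal, 3 of 9 stellate and fibroblast, and 3 of 6 Schwann cell markers. The part of these other cells in the changes below was not tested, and in whole islets fewer cells of a type cannot be told apart from less RNA per cell.

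Promoter sequences are shown first, because several of these genes moved together and class I promoters are known for a shared set of elements. The RefSeq promoter table (GRCm38.p6) held 4 of the 7 genes. The 250 bases before the start that this table uses are printed on the plus strand, which is the coding strand of all 4 genes, in lower case with motif matches in capitals. The windows are chr17:34187306-34187555 for Tap1, chr17:33919228-33919477 for Tapbp, chr13:74639603-74639852 for Erap1 and chr17:37269984-37270233 for H2-M3. The Erap1 window lies inside the gene, whose RefSeq model starts at 74639573, so its positions are counted from a later start.
Tap1: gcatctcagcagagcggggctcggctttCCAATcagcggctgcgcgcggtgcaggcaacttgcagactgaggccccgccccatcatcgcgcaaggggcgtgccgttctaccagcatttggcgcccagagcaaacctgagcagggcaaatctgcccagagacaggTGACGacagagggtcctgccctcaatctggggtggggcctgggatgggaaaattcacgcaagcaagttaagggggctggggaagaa
Tapbp: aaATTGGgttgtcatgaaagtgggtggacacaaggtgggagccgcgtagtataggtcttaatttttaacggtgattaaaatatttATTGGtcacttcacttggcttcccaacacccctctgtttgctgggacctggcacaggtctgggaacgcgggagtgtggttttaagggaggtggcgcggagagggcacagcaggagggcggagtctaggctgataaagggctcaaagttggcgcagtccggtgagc
Erap1: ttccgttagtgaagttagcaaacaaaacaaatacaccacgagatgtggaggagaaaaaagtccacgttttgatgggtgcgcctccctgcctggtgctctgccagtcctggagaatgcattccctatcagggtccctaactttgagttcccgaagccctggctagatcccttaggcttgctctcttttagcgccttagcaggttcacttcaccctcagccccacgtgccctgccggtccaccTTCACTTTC
H2-M3: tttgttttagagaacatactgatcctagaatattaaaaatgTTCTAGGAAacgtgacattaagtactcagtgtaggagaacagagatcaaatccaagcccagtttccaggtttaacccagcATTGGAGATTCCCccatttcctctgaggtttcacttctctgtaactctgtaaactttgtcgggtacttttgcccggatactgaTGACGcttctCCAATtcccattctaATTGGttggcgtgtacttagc

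In the Tap1 sequence the capitals mark the Y box letters CCAAT, bound by NF-Y, at positions −222 to −218 from the start, and the letters TGACG of the X2 box, bound by CREB/ATF factors, at −86 to −82. In the Tapbp sequence they mark the Y box on the minus strand (ATTGG) at −248 to −244 and −165 to −161. In the Erap1 sequence they mark the core of the interferon-stimulated response element, GAAANNGAA, bound by IRF factors, which is on the minus strand (TTCACTTTC) at −9 to −1. Another match of that core overlaps it at −3 to 5 and so runs past the printed bases. In the H2-M3 sequence the capitals mark GAS (TTCNNNGAA), an element bound by STAT factors, at −209 to −201, TGACG at −46 to −42, and the Y box at −129 to −125, −36 to −32 and −21 to −17. They also mark the NF-kB consensus at −126 to −117, which overlaps the first of these Y boxes. Of the 32544 RefSeq windows of 300 bases (250 before and 50 after the start), 8.33% held GAS, 8.53% the response element core, 20.9% TGACG, 37.4% CCAAT and 8.49% the NF-kB consensus, on either strand, so single matches are common. H2-M3 had matches of the most kinds among the 4, and Tapbp had Y boxes alone. Whether any match bears on the changes was not tested.

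Tap1 shares its upstream region with Psmb9, the immunoproteasome subunit gene that is read in the other direction. Their RefSeq starts lie 225 bases apart, and their windows have 275 of 300 bases in common. The GENCODE M21 models of both genes overlap by 212 exon bases on opposite strands, 3.87% of the exon bases of Tap1. Reads in that stretch cannot be told apart between both genes if the counting did not use the strand, which the sources used here do not give.

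The transporter subunits differed in size of change. Tap1 (chromosome 17, 34187553 to 34197225, plus strand, GRCm38) had 36.3 and 37.0 CPM in cytoEV islets, against 6.94 and 5.83 CPM in control islets. Both cytoEV libraries stood far above both control libraries. The means were 36.6 ± 0.552 CPM in cytoEV islets and 6.39 ± 0.781 CPM in control islets (SD, n = 2 each). The log2 change was 2.35 ± 0.12 (SE), with a 95% interval of 2.09 to 2.62 and a limma adjusted p of 8.09e-06. A larger rise in log2(CPM + 1) was found in 24 tested genes, and falls were not counted. Tap2 (chromosome 17, 34203527 to 34216321, plus strand) had 34.5 and 36.9 CPM in cytoEV islets, against 23.9 and 16.4 CPM in control islets. Its groups did not overlap, and its control libraries lay further from each other than its cytoEV libraries. The means were 35.7 ± 1.71 CPM in cytoEV islets and 20.1 ± 5.34 CPM in control islets (SD, n = 2 each). The log2 change of Tap2 was 0.82 ± 0.16 (SE), with an interval of 0.45 to 1.18 and a limma adjusted p of 0.0200. That call was lost with no filter on low values (limma adjusted p = 0.125) and in edgeR (adjusted p = 0.0539). Of the exon bases of Tap2, 14.1% lie under the antisense model Gm15821 and 4.36% under Gm20496, also antisense. Neither model has a row in the deposited data.

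Within a library the log2 ratio of Tap1 to Tap2 CPM was 0.07 and 0.00 in cytoEV islets, against −1.77 and −1.47 in control islets. In both cytoEV libraries the subunits thus had nearly the same CPM, whereas in both control libraries Tap1 was below Tap2. The difference of the mean log2 ratios was 1.66, and the 4 differences between a cytoEV and a control library ran from 1.48 to 1.84. With 2 libraries against 2 an exact two-sided permutation test cannot go below p = 0.333, which is the p here (0.417 after Benjamini-Hochberg adjustment over the 5 gene pairs compared). Per kilobase of merged exons, which corrects for length, Tap1 averaged 6.69 CPM per kb in cytoEV islets and 1.17 in control islets, and Tap2 averaged 9.44 CPM per kb in cytoEV islets and 5.33 in control islets. The gap depends on the length used. Per kilobase of the longest transcript, Tap1 averaged 9.37 in cytoEV islets and 1.63 in control islets, and Tap2 averaged 10.4 and 5.85.

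Psmb9, which faces Tap1, is the second gene whose ratio to Tap1 was followed. Their log2 ratio was 0.86 and 0.95 in cytoEV islets, against 0.83 and 0.97 in control islets, so the groups overlapped. The difference was 0.0093, with the 4 differences from −0.11 to 0.13 (exact permutation p = 1, two-sided). Its sign turned with no pseudocount (−0.00729), without control replicate 1 (−0.0618) and without cytoEV replicate 2 (−0.0389). Psmb9 itself had 19.95 and 19.1 CPM in cytoEV islets, against 3.87 and 2.93 CPM in control islets, a log2 change of 2.23 (limma adjusted p = 2.74e-05).

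**Figure D2:**
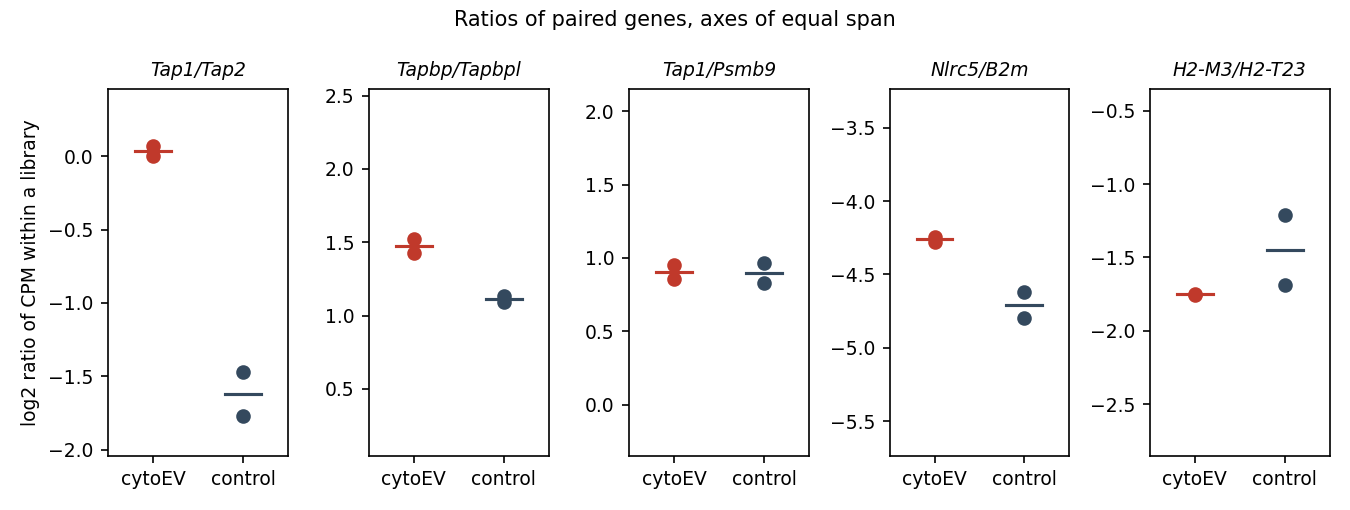
Log2 ratio of the CPM of paired genes within each library, cytoEV left and control right, with bars at the means of 2 libraries and axes that span the same number of log2 units. The Tap1 to Tap2 ratio is near 0 in cytoEV libraries and below −1.4 in control libraries, and the Tap1 to Psmb9 ratio overlaps between the groups.

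The tapasin genes come next. Tapbp encodes tapasin, which bridges the transporter and the class I molecule, and Tapbpl encodes TAPBPR, which edits peptides on class I molecules outside the loading complex. Tapbp (chromosome 17, 33915899 to 33929292, plus strand) had 219 and 216 CPM in cytoEV islets, against 150.1 and 132 CPM in control islets. The groups did not overlap, and the cytoEV libraries lay close together. The means were 217 ± 1.78 CPM in cytoEV islets and 141 ± 12.8 CPM in control islets (SD, n = 2 each), a 1.54-fold ratio. The log2 change was 0.62 ± 0.09 (SE), with an interval of 0.42 to 0.83 and a limma adjusted p of 0.00502. Without cytoEV replicate 1 the limma adjusted p of Tapbp was 0.0584. Of the exon bases of Tapbp, 24.9% lie under the antisense model Gm19412 and 149 bases are shared with Zbtb22 on the same strand. Zbtb22 had 21.8 and 22.7 CPM in cytoEV islets, against 26.4 and 23.2 CPM in control islets, and was not called.

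Tapbpl (chromosome 6, 125223933 to 125231860, minus strand) had 75.9 and 80.3 CPM in cytoEV islets, against 68.3 and 61.9 CPM in control islets. The groups did not overlap, and the cytoEV libraries lay closer together than the control libraries. The gap between the lowest cytoEV and the highest control library was only slightly wider than the gap between the control libraries. The means were 78.1 ± 3.095 CPM in cytoEV islets and 65.1 ± 4.49 CPM in control islets (SD, n = 2 each). The log2 change was 0.26 ± 0.09 (SE), with an interval of 0.05 to 0.47, an unadjusted p of 0.0223 in limma and an adjusted p of 0.139, so Tapbpl was not called. It passed without control replicate 1 (limma adjusted p = 0.00561) and without control replicate 2 (0.0480). The log2 ratio of Tapbp to Tapbpl was 1.52 and 1.43 in cytoEV islets, against 1.14 and 1.09 in control islets, a difference of 0.36 with the 4 differences from 0.29 to 0.43. Both cytoEV libraries had the higher ratio, at the smallest exact permutation p the design allows (0.333, adjusted 0.417).

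Erap1 trims the amino end of peptides in the endoplasmic reticulum before they are bound. Mice lack a second such gene that humans have (ERAP2). Erap1 (chromosome 13, 74639568 to 74693201, plus strand) had 137 and 131 CPM in cytoEV islets, against 84.2 and 95.7 CPM in control islets. Both cytoEV libraries lay above both control libraries. The means were 134 ± 4.50 CPM in cytoEV islets and 90.0 ± 8.13 CPM in control islets (SD, n = 2 each), a 1.49-fold ratio. The log2 change was 0.57 ± 0.09 (SE), with an interval of 0.36 to 0.79 and a limma adjusted p of 0.00901. With no filter on low values the limma adjusted p was 0.0613, without cytoEV replicate 1 it was 0.148 and without cytoEV replicate 2 it was 0.0620, so the call was lost in each. The end of Erap1 lies over that of Cast, read in the other direction, by 834 bases (11.5% of the exon bases of Erap1). Cast had 27.6 and 27.5 CPM in cytoEV islets, against 23.9 and 28.7 CPM in control islets, and was not called.

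The transactivator gene Nlrc5 had the largest ratio of the 7. Nlrc5 (chromosome 8, 94434356 to 94527272, plus strand) had 15.6 and 15.3 CPM in cytoEV islets, against 2.27 and 2.27 CPM in control islets. As recovered reads these were 2157 and 2079 in cytoEV islets, against 294 and 355 in control islets. The means were 15.5 ± 0.257 CPM in cytoEV islets and 2.27 ± 0.00471 CPM in control islets (SD, n = 2 each). The log2 change was 2.33 ± 0.11 (SE), with an interval of 2.07 to 2.59 and a limma adjusted p of 7.71e-06. Its size followed the scale: it was 1.49 with a pseudocount of 5 CPM, 2.71 with 0.1 CPM and 2.76 in edgeR, and the call was kept in each. None of the stretches of 50 bases in its transcripts occurs in the same orientation in a transcript of another gene. For the 7 genes the share of such stretches found elsewhere was at most 3.52% (Tapbpl). Overlaps on the opposite strand are not counted in that share. The antisense gene 9330175E14Rik overlaps the first part of Nlrc5 by 78 exon bases and was below the filter. It had 129 and 106 reads in cytoEV islets, against 13 and 26 reads in control islets. It was chosen after its values were seen and was not tested.

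Nlrc5 was set against B2m, the light chain of class I molecules and a target of NLRC5. The log2 ratio of Nlrc5 to B2m CPM was −4.28 and −4.24 in cytoEV islets, against −4.62 and −4.80 in control islets. The difference was 0.45, with the 4 differences from 0.34 to 0.56 (exact permutation p = 0.333, the smallest possible, adjusted 0.417), and with a pseudocount of 1 CPM in place of 0.1 it was 0.083. B2m, at 306 and 291 CPM in cytoEV islets, against 58.2 and 66.0 CPM in control islets, had a log2 change of 2.25 (limma adjusted p = 2.89e-06).

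The nonclassical class I gene H2-M3 presents peptides with a formylated first methionine, which bacteria and mitochondria make. H2-M3 (chromosome 17, 37270220 to 37274484, plus strand) had 22.1 and 24.7 CPM in cytoEV islets, against 19.0 and 21.4 CPM in control islets. The lowest cytoEV library was just above the highest control library. The means were 23.4 ± 1.84 CPM in cytoEV islets and 20.2 ± 1.67 CPM in control islets (SD, n = 2 each). The log2 change was 0.20 ± 0.11 (SE), with an interval of −0.05 to 0.46, an unadjusted p of 0.105 in limma and an adjusted p of 0.318. It passed without control replicate 2 (log2 change 0.28, limma adjusted p = 0.0353) and in no other alternative run gene by gene. H2-T23, the mouse nonclassical class I gene for Qa-1, had 74.7 and 83.3 CPM in cytoEV islets, against 61.5 and 49.7 CPM in control islets (log2 change 0.51, limma adjusted p = 0.0417). That call was lost in several alternatives, with adjusted p between 0.0535 and 0.368, among them edgeR (0.0839), no filter on low values (0.141), and the limma fits without cytoEV replicate 1 (0.101) and without cytoEV replicate 2 (0.368). The log2 ratio of H2-M3 to H2-T23 was −1.75 and −1.75 in cytoEV islets, against −1.69 and −1.21 in control islets, a difference of −0.30 with the 4 differences from −0.54 to −0.06 (exact permutation p = 0.333, adjusted 0.417). The size of that difference hung on the control libraries, at −0.54 without control replicate 1 and −0.06 without control replicate 2.

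By level per kilobase of merged exons, the order in control islets was Tapbp (38.9 CPM per kb), Tapbpl (27.7), H2-M3 (14.0), Erap1 (12.4), Tap2 (5.33), Tap1 (1.17) and Nlrc5 (0.267). In cytoEV islets it was Tapbp (59.9 CPM per kb), Tapbpl (33.2), Erap1 (18.4), H2-M3 (16.3), Tap2 (9.44), Tap1 (6.69) and Nlrc5 (1.82). The place of Erap1 and H2-M3 depends on the length used: per kilobase of the longest transcript, Erap1 had 15.9 CPM per kb in control islets and H2-M3 had 14.0. The gene with the lowest level, Nlrc5, and the next lowest, Tap1, were those with the largest ratios. B2m averaged 347 CPM per kb in cytoEV islets and 72.2 in control islets, above every member in both groups.

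The 9 other lists of the pathway described here hold 92 genes beside the 7, some of them below the filter, and 21 were called higher and 6 lower in limma. In the list of class I chains, 7 of 12 tested genes were higher and 0 lower (unadjusted 0, edgeR 0, DESeq2 0, but 1 without cytoEV replicate 2), with a median log2 change of 0.66. On the log2(CPM + 1) scale the largest changes after that of B2m were those of H2-Q6 (2.17) and H2-Q4 (1.36). The order differs by the ratio of mean CPM, which was 9.94 for H2-Q6, 4.80 for B2m, 3.53 for H2-Q7 (named after its value was seen) and 2.63 for H2-Q4. H2-Q6 had 4.99 and 6.12 CPM in cytoEV islets, against 1.12 and 0 CPM in control islets. H2-Q6 and H2-Q4 had limma adjusted p of 0.00369 and 6.74e-05, and the H2-Q6 call was lost in edgeR and DESeq2 (adjusted p = 0.150 and 0.568). Among immunoproteasome and proteasome activator genes, which shape the peptides that TAP carries, 5 of 6 were higher and Psme3 was not called. The proteolytic subunit gene Psmb8 lies between Tap1 and Tap2 and had 33.9 and 36.4 CPM in cytoEV islets, against 11.99 and 10.8 CPM in control islets, a log2 change of 1.55 (limma adjusted p = 6.78e-05). Psmb10, the third such subunit gene, changed by 1.0 (limma adjusted p = 0.0175), a call lost in edgeR (adjusted p = 0.0519). With no filter on low values 4 class I chain genes and 3 immunoproteasome and activator genes were called higher in limma.

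Part of the general folding machinery around the loading complex was lower. Of 12 genes for chaperones and partners in the endoplasmic reticulum, 4 were called lower and 0 higher (unadjusted 0, edgeR 0, DESeq2 0), and the median log2 change was −0.29. Hspa5, the chaperone BiP, had 2804 and 2742 CPM in cytoEV islets, against 4022 and 4645 CPM in control islets, and fell by 0.64 on the log2 scale (limma adjusted p = 0.00501). Pdia6, a protein disulphide isomerase, fell by 0.47 and Calr, the calreticulin that sits in the loading complex itself, by 0.41 (limma adjusted p = 0.00844 and 0.0253). Pdia3, which encodes ERp57, the partner joined to tapasin, had a log2 change of −0.25 and was not called (limma adjusted p = 0.192). The count of 4 became 0 with no filter on low values and 0 in either fit that lacked a cytoEV library (replicate 1 or replicate 2). It was 10 without control replicate 1 and 7 without control replicate 2.

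Erap1 was set beside 11 other peptidases that can trim peptides, of which 2 were higher and 0 lower (unadjusted 0, edgeR 0, DESeq2 0) with a median log2 change of −0.05. These were Enpep, at 66.5 and 65.7 CPM in cytoEV islets, against 45.9 and 50.1 CPM in control islets (log2 change 0.46), and Anpep, a surface aminopeptidase, at 121 and 122 CPM in cytoEV islets, against 96.6 and 95.7 CPM in control islets (0.34). Their limma adjusted p were 0.0228 and 0.0465, and neither passed without cytoEV replicate 1 or without cytoEV replicate 2. With no filter on low values neither passed (limma adjusted p = 0.072 for Enpep and 0.0778 for Anpep). The Anpep call was also lost in edgeR (adjusted p = 0.0512) and with a filter of 5 CPM (limma adjusted p = 0.055). The list's counts were 2 higher with 3 lower without control replicate 1, and 4 higher with 1 lower without control replicate 2. Erap1 thus had the largest log2 change of the 12. Tap1 and Tap2 belong to subfamily B of the ABC transporters, and of 9 others of that subfamily 0 were higher in limma (unadjusted 1, edgeR 0, DESeq2 0) and 1, the mitochondrial transporter gene Abcb6, was lower, with a log2 change of −0.61 (adjusted p = 0.00635), a call lost without cytoEV replicate 1 (0.0944) and without cytoEV replicate 2 (0.0622). Abcb1b had a log2 change of 0.39 and did not pass (limma adjusted p = 0.103).

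Of 11 tested genes for RFX, NF-Y, CREB/ATF and coactivator proteins, 0 were called in either direction by limma (2 higher and 0 lower with no adjustment of p, 0 in edgeR and 1 higher in DESeq2), with a median log2 change of −0.05. These are the factors that NLRC5 needs at class I promoters, and a share of calls as in all tested genes (3.16% higher and 3.51% lower) would also leave few or none in a list of this size. Rfx5 had 41.1 and 41.6 CPM in cytoEV islets, against 31.6 and 33.3 CPM in control islets, a log2 change of 0.34 (limma adjusted p = 0.0685). It passed in DESeq2 (adjusted p = 0.0167) and in limma without control replicate 1 (0.0151) and without control replicate 2 (0.00282). Kat2b, an acetyltransferase gene, had a log2 change of 0.28 (limma adjusted p = 0.180) and passed without control replicate 2 (0.000539). Ciita, the class II transactivator and closest in role to Nlrc5, was below the filter, with 131 and 136 reads in cytoEV islets, against 72 and 47 reads in control islets. Of 11 NOD-like receptor genes, the protein family of NLRC5, 4 reached the filter and 0 were called (0 with no adjustment of p, 0 in edgeR and 0 in DESeq2), among them Nlrx1 with a log2 change of 0.22 and Naip5 with 0.18.

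Of 10 STAT, IRF and NF-kB factor genes, listed as upstream of class I genes, 6 were higher and 1 lower. Of all tested genes, 3.16% were called higher and 3.51% lower. The median log2 change of the 10 was 0.64, and whether they bear on the change of Nlrc5 was not tested. Nfkb2 and Relb, of the noncanonical NF-kB pathway, changed by 1.47 and 1.33 (limma adjusted p = 0.000221 and 0.000356), and Irf1 by 0.81 (0.00114). The gene called lower was Stat3, with a log2 change of −0.60 (limma adjusted p = 0.00274). It was named after its value was seen, and the count of lower genes was 0 without cytoEV replicate 1 and 0 without cytoEV replicate 2. Among 7 interferon receptor and Janus kinase genes 1 was higher, Ifngr2, with 13.0 and 12.1 CPM in cytoEV islets, against 8.06 and 8.96 CPM in control islets (log2 change 0.51, limma adjusted p = 0.0347, and 0.392 without cytoEV replicate 1 and 0.165 without cytoEV replicate 2). Ifngr1, the other chain of that receptor, had a log2 change of −0.22 and was not called (limma adjusted p = 0.241).

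**Figure D3:**
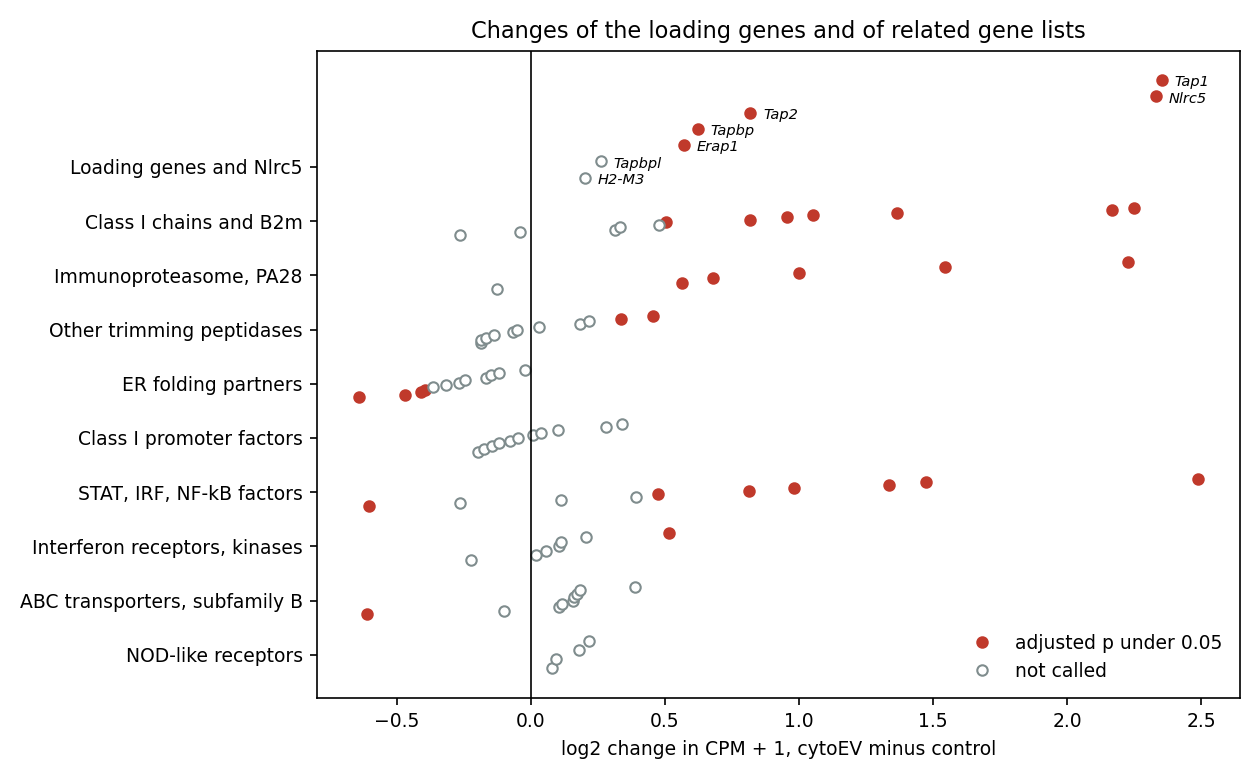
Log2 change in CPM + 1 (cytoEV minus control) of each tested gene, with 1 row per list and the 7 loading and transactivator genes named in the top row. Filled points passed at a limma adjusted p under 0.05. The class I chains and the immunoproteasome list reach log2 changes above 1.5 as Tap1 and Nlrc5 do, the promoter factors and NOD-like receptors have no filled point, and all 12 folding partners lie below 0.

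The genes whose values were nearest to those of each called member over the 4 libraries were found by the Euclidean distance of log2(CPM + 1), each gene taken minus its control mean. For Tap1 they included Psmb9 (distance 0.2002) and Gbp11 (0.201), and for Nlrc5 they were Gbp11 (0.129), B2m (0.173) and Oasl2 (0.204). Among those of Tap2 were H2-D1 (0.213) and Tnfrsf14 (0.234), whose control replicate 1 also lay above control replicate 2. Tapbp was nearest to Limd2 (0.0416), Pcdha12 (0.0588) and Fbxo6 (0.0785). Erap1 was nearest to Parp12 (0.00976), Sdhaf4 (0.0215) and Rps6ka5 (0.0223), genes with control replicate 2 above control replicate 1 as in Erap1. Distances are small for genes with small changes, so they are not comparable between members, and 4 libraries give many genes such a pattern.

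The calls around the loci were also looked at, a step chosen after values were seen. Of 25 tested genes that are the nearest 2 on either side of a member and not members themselves, 4 were higher, 2 lower and 19 not called. They were taken by order along the chromosome with no limit on distance, so some are far away. Psmb9 lay 225 bases from Tap1, but Pcsk1 lay 396214 bases from Erap1 and Cd2ap 5474401 bases from H2-M3. Of all tested genes, 3.16% were called higher and 3.51% lower, and the neighbours were not tested against these shares. The 4 higher genes, H2-DMb1, Psmb9, Psmb8 and H2-Aa, all flank Tap1 and Tap2 in the class II region. H2-DMb1 and H2-Aa passed narrowly (limma adjusted p = 0.0416 and 0.0465). H2-Ab1, which lies between Tap2 and H2-Aa, was not called (log2 change 0.21, limma adjusted p = 0.423). The 4 nearest tested genes of Tapbp (Daxx, Zbtb22, Rgl2 and Pfdn6) were not called, with log2 changes between −0.28 and −0.09. Beside Nlrc5 the 2 genes before it, Nup93 and Herpud1, were lower, with log2 changes of −0.34 and −0.58 (limma adjusted p = 0.04995 and 0.00311), and neither gene after it was called.

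Changing the processing moved the members to different degrees. Tap1 and Nlrc5 were called higher in every alternative that was run gene by gene. The number of members called higher was 3 with no filter on low values, 3 without cytoEV replicate 1, 4 without cytoEV replicate 2, 6 without control replicate 1 and 7 without control replicate 2. Over the same settings the number of all tested genes called higher ran from 149 to 2408. The spread was smaller within the cytoEV pair than within the control pair (median absolute log2 difference over genes 0.0727 in cytoEV islets and 0.165 in control islets), and a fit that lacks a control library takes its spread from the cytoEV pair.

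**Figure D4:**
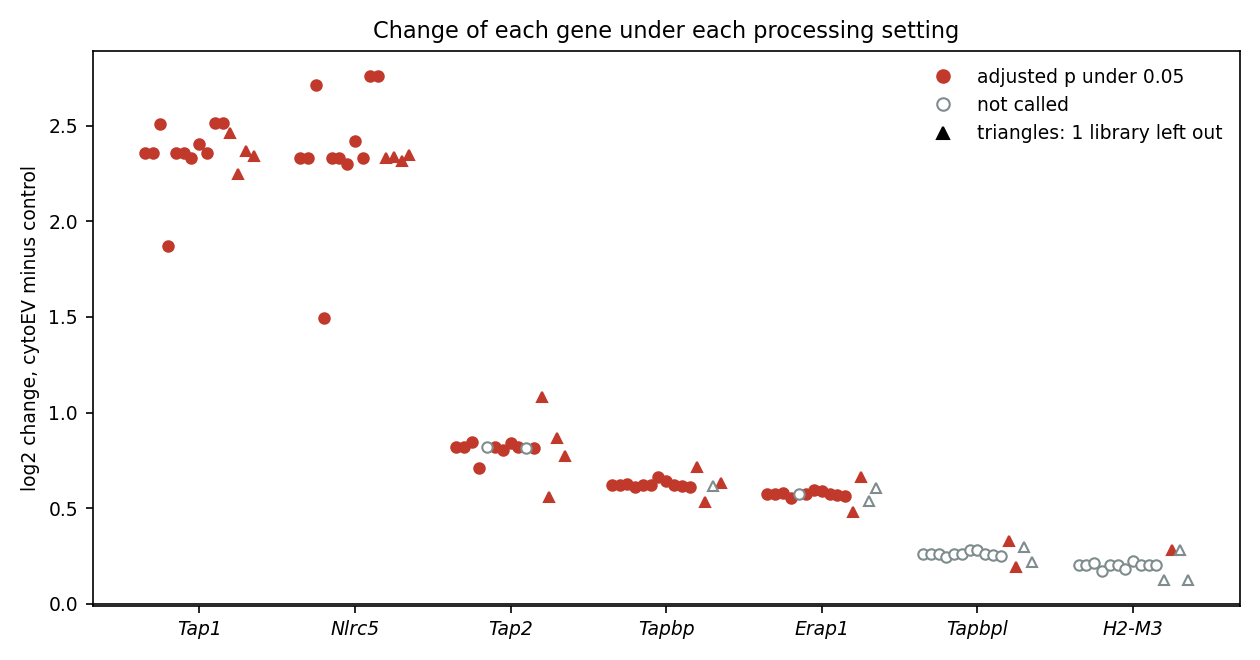
Log2 change of each gene (cytoEV minus control) under each processing setting, filled where the adjusted p was under 0.05, with triangles for fits that leave out a single library. Tap1 and Nlrc5 are filled throughout and stay above a log2 change of 1.4, Tap2, Tapbp and Erap1 have some open points between 0.5 and 0.9, and Tapbpl and H2-M3 are mostly open below 0.4.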

How the data were processed

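Poly(A)-selected RNA libraries were made with a stranded kit, per the labels' protocols. The authors deposited a table of CPM values, with 1 column for each library beside the gene symbols. Per the submitters' processing notes, the build was mm10 and the tools, named without roles, include edgeR 3.1.1, R 3.6.1, StringTie 2.1.3 and TopHat2 2.0.6. The sources used here do not give the strand setting of the counting. The names of the control columns read as control EV, whereas the labels say untreated, and they were matched by replicate number, so whether control islets received other vesicles is not settled. All CPM values (100%) were whole multiples of a read within 0.01 of a read, and whole reads were recovered from these steps. The table has 27 identifiers that are plain numbers, and these are not named.

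A gene was tested where 2 or more libraries had 1 CPM or more. The test was limma 3.58.1 (R 4.3.3) on log2(CPM + 1), with an eBayes trend, a single group term (2 residual degrees of freedom) and p-values adjusted by Benjamini-Hochberg across 12780 genes. Alternatives were DESeq2 1.42.0 and the quasi-likelihood test of edgeR 4.0.16 with TMM, both on recovered reads, and other pseudocounts, filters, scalings and single libraries left out. The scripts were tested on simulated counts. Ratios of gene pairs used a pseudocount of 0.1 CPM and exact permutation tests. Loci, exon lengths and overlaps come from GENCODE M21 (GRCm38) and promoters from RefSeq (GRCm38.p6), read with Python 3.11.15 and pandas 2.3.3, and of 24419 symbols 23358 matched GENCODE. The listed symbol Nrdc was read as its older name Nrd1.

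The members and lists were chosen with earlier results of these data known. Named genes are the members, up to 3 of each pathway list with the largest log2 change among called genes (where fewer than 3 were called, the called ones and then those of smallest p, to 2 in all), Irf1, B2m, Psmb8, Psmb9, Ciita, the genes of the 5 pairs and the 3 nearest genes of each called member. Some genes that the rule and the lists cover are not reported here. Other genes named with values lie beside or over a member, are cell type markers or are marked in the text. Pdia3 was named outside this rule.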

Additional observations from a re-analysis of the deposited data

How the results depend on the processing

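Of the calls of the 7 genes, those of Tap1 and Nlrc5 stayed in every alternative run gene by gene, and the others changed as follows. With no filter on low values Tap2 (log2 change 0.82, adjusted p = 0.125) and Erap1 (0.57, 0.0613) did not pass in limma, and edgeR did not call Tap2 (0.81, adjusted p = 0.0539). With single libraries left out, Tap2 ran from 0.56 to 1.08, Tapbp from 0.53 to 0.71, Erap1 from 0.48 to 0.66, Tapbpl from 0.19 to 0.33, H2-M3 from 0.12 to 0.28, and the members called higher from 3 to 7. With no filter, limma called 3 members, 12 other pathway genes and 149 of all genes higher, and 2 pathway genes and 179 of all genes lower. With a filter of 5 CPM 252 genes were higher. DESeq2 called 745 higher and 845 lower. With single libraries left out the counts ran from 215 to 2408 higher and 249 to 2023 lower, and the pathway genes called lower from 0 to 16. A fit with 1 library in a group assumes that it varies like the other group. The cause of these changes was not tested.

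Whether the replicate numbers pair libraries across the groups is not settled. The deviations of same-numbered libraries correlated at −0.22 over genes, which cannot decide it with 2 libraries per group. A fit with the replicate block called 5 members higher, 481 genes higher and 512 lower; the calls of Calr (adjusted p = 0.0622) and Anpep (0.190) were lost. Crossing the numbers, chosen after seeing the data, gave 6 members, 1469 genes higher, 1434 lower and 11 pathway genes lower. The Tap1 to Psmb9 difference turned negative with no pseudocount (−0.00729) and ran from −0.0618 to 0.0804 with single libraries left out. The change of Naip5 ran from −0.0666 to 0.43 with single libraries left out.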

Other observations

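H2-M3 was the only tested gene among the 12 whose symbol starts with H2-M and a digit. Of the others, 8 had no read in any library. H2-M2 had 86 and 131 reads in cytoEV islets, against 23 and 78 reads in control islets, H2-M9 had 0 and 3 reads in cytoEV islets, against 3 and 6 reads in control islets, and H2-M10.1 had 17 reads in control replicate 1 alone. These genes were looked up after the data were seen and were not tested.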
